A study of Mus musculus with 24 samples.

Results

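The response of bone-marrow-derived macrophages to acetylated low-density lipoprotein (AcLDL) was compared between mice lacking both liver X receptors and LXR-positive mice. For every gene, the quantity was the AcLDL minus vehicle change in double-knockout (DKO) cells minus the same change in LXR-positive cells, on the log2 scale. A negative difference therefore means a weaker rise, or a deeper fall, in DKO cells. All 12 libraries of the series' 24 that carry AcLDL or its vehicle were used, 3 in each of 4 groups: DKO with AcLDL, DKO with vehicle, LXR-positive with AcLDL and LXR-positive with vehicle. The deposited table lists 47372 genes, and the 16026 that reached 10 normalized counts in at least 3 libraries were tested.

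Both genotypes carry the strain label C57BL/6J and an age of 8 to 12 weeks. The DKO mice lack LXRα and LXRβ, and the LXR-positive mice are C57BL/6J animals, which the labels do not call littermates. Marrow cells were cultured in medium conditioned by L929 cells until treatment. The dose of AcLDL was 50 µg/ml; the protocols state no time for it, whereas vehicle was added on day 5 for 17 hours. Each library came from a single mouse, and the series' design text counts 6 mice over 4 treatments, so the AcLDL and vehicle libraries with the same number within a genotype were read as the same mouse.

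LXRα (gene Nr1h3) and LXRβ (gene Nr1h2) are nuclear receptors that bind oxysterols, which are oxidised derivatives of cholesterol, and act on DNA as partners of RXR. In macrophages they switch on genes that move cholesterol out of the cell, such as the transporters Abca1 and Abcg1, and genes of fatty acid synthesis and desaturation, partly through Srebf1. AcLDL is a modified lipoprotein that macrophages take up through scavenger receptors, and it loads them with cholesterol. Sterols in turn hold the SREBP transcription factors in the endoplasmic reticulum through the INSIG proteins, which lowers the genes of cholesterol synthesis by a route that does not need LXR.

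The promoter of Abca1 is shown because this gene's response differed between the genotypes, with short stretches from Srebf1, another gene of the LXR target list, from Fasn, of the fatty acid list, and from Hmgcs1, of the cholesterol list. The sequences are from RefSeq (build GRCm38.p6), 5′ to 3′ on the strand of the gene. Capitals mark the match to the LXR element DR4, searched as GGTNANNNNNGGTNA, or, in Hmgcs1, to a sterol regulatory element, searched as TCACNCCAC, on both strands in each case. Abca1 lies at chr4:53159896-53160145 (minus strand), Fasn at chr11:120824751-120824779 (minus strand), Srebf1 at chr11:60210632-60210660 (minus strand) and Hmgcs1 at chr13:119690204-119690232 (plus strand).
Abca1: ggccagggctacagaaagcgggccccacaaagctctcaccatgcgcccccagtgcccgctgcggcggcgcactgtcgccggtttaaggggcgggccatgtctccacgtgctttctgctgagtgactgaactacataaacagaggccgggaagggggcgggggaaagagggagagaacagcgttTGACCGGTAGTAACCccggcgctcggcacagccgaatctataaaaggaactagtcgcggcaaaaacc
Fasn: gccacgaTGACCGGTAGTAACCccgcctg
Srebf1: acgacagTGACCGCCAGTAACCccagcgc
Hmgcs1: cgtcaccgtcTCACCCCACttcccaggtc
Counted from the transcript start of the window used, the match began 67 bases before the start in Abca1, 225 in Fasn, 182 in Srebf1 and 137 in Hmgcs1. For Srebf1 that start is an internal one, since the window lies inside the deposited gene (chr11:60199089-60222581, minus strand). The capitals of Abca1 and Fasn are the same letters. In windows of 250 bases before to 50 after each start, the DR4 letters were present in 236 of 32851 windows (0.718%) and the sterol element letters in 408 (1.24%). By gene, the DR4 letters were present in 221 of 27025 genes with a window (0.818%) and the sterol element letters in 388 (1.44%). Of the LXR target genes with a window, 3 of 26 held the DR4 letters (Abca1, Srebf1 and Acsl3). So did 4 of 20 fatty acid genes (Fasn, Elovl1, Srebf1 and Acsl3) and 0 of 18 cholesterol genes. Srebf1 and Acsl3 are in both the LXR target and the fatty acid list and are counted in each. The sterol element letters were held by 0 of 26, 1 of 20 (Acsl1) and 1 of 18 (Hmgcs1) in the same order. A match describes the letters in the window and is not a measured binding site.

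Libraries held 15263971 to 18739975 reads in DKO with AcLDL, 20659071 to 27189081 in DKO with vehicle, 8280899 to 8723714 in LXR-positive with AcLDL and 10540385 to 17348717 in LXR-positive with vehicle, so depth differed between the groups and was lowest in LXR-positive cells with AcLDL. Macrophage markers were abundant in every library, and none of the 12 genes was at 0 in all libraries. Their summed levels were 138397 to 181040 normalized counts in DKO with AcLDL and 176104 to 208454 in DKO with vehicle. In LXR-positive cells they were 225676 to 259348 with AcLDL and 223722 to 297942 with vehicle. Every DKO library was thus below every LXR-positive library, and Lyz2 alone made up 63.4% of the sum. Summed levels of 13 neutrophil and precursor markers were 6508 to 9389 in DKO with AcLDL, 6576 to 9555 in DKO with vehicle, 3651 to 4333 in LXR-positive with AcLDL and 4721 to 4864 in LXR-positive with vehicle. The 14 stromal markers varied more within each group, from 679 to 7864, 616 to 7259, 394 to 2002 and 354 to 1664 in the same order. None of these markers was called for the difference in response, and their part in the results below was not tested. In bulk RNA, fewer cells of a type and less RNA per cell cannot be told apart.

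The receptor genes themselves were measured first. Nr1h2 stood at 298, 279 and 351 normalized counts in DKO with AcLDL, 312, 275 and 399 in DKO with vehicle, 553, 438 and 482 in LXR-positive with AcLDL and 523, 569.7 and 654 in LXR-positive with vehicle. Nr1h3 stood at 243, 207 and 217 in DKO with AcLDL, 187, 176 and 179 in DKO with vehicle, 140.3, 128 and 153 in LXR-positive with AcLDL and 114, 176 and 114 in LXR-positive with vehicle. Every DKO library was below every LXR-positive library for Nr1h2 and above it for Nr1h3, where the nearest values were 176.26 in DKO Veh 2 and 175.885 in LXR Veh 2. Which exons were deleted is not stated in the labels, so the totals do not check the genotype. Neither gene's AcLDL response differed in the test, at 0.17 ± 0.22 (SE, log2) for Nr1h2 and 0.21 ± 0.24 for Nr1h3.

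In these macrophages the cholesterol transporters Abca1 and Abcg1 rose with AcLDL in LXR-positive cells and not past the test in DKO cells, and the desaturase gene Scd2 fell in DKO cells and had a positive estimate in LXR-positive cells. Several genes of cholesterol synthesis, among them Fdps, Idi1 and Hmgcs1, fell in both genotypes, and the lipid droplet gene Plin2 and the lipase inhibitor gene Angptl4 rose in both. The difference in response was called for 4 of 16026 genes (0.025%) with limma at an adjusted p under 0.05 (Benjamini-Hochberg over all genes tested): Scd2, Abcg1 and Abca1 were lower and Pole2 higher in DKO. At an unadjusted p under 0.05, 268 genes were lower (1.67%) and 275 higher (1.72%). The AcLDL response itself was called for 20 genes in DKO (2 higher, 0.0125%, and 18 lower, 0.112%) and for 36 in LXR-positive cells (16 higher, 0.0998%, and 20 lower, 0.125%); with the mouse as a block these counts were 38 (0.237%) and 247 (1.54%), and the same 4 genes were called for the difference (0.025%). DESeq2 on the recovered reads called the difference for 13 genes (0.0811%), 3 higher (0.0187%) and 10 lower (0.0624%), the same 4 among them.

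**Figure D1:**
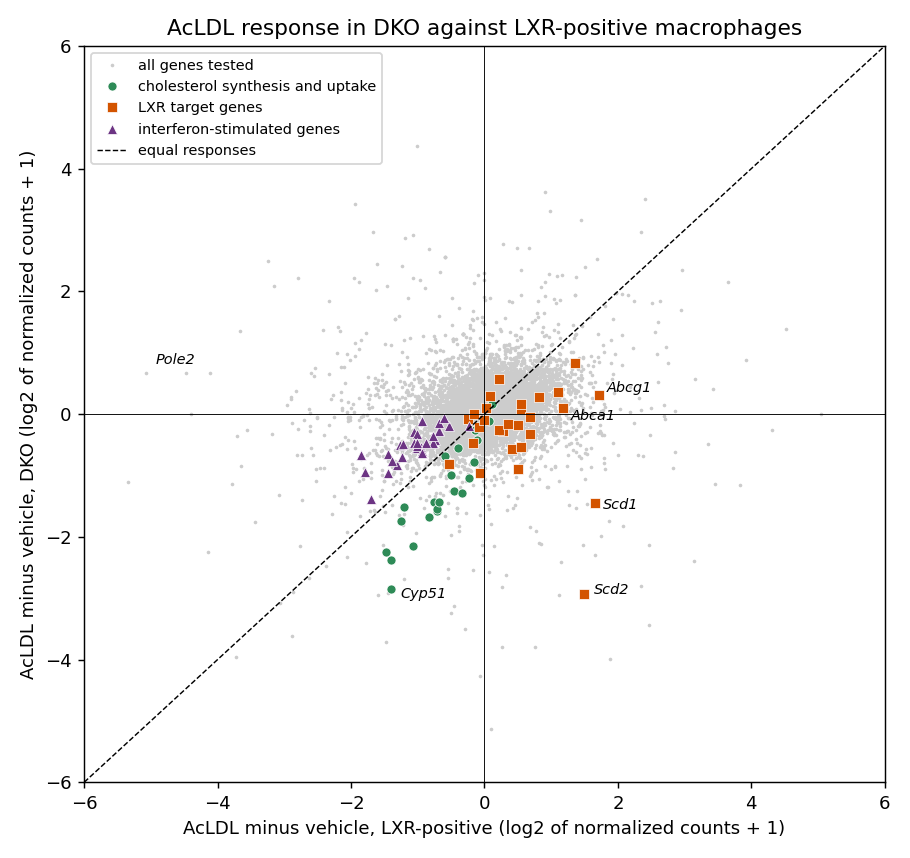
AcLDL response (AcLDL minus vehicle, log2 of normalized counts + 1) of the 16026 genes tested, DKO on the vertical axis against LXR-positive on the horizontal axis, with 3 gene lists coloured and the dashed line marking equal responses. LXR target genes lie mostly below the line and to the right of 0, and cholesterol genes mostly below the line and to the left of 0.

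Abca1 (chr4:53030787-53159895, GRCm38) encodes the transporter that passes cholesterol to apolipoprotein A-I. Its level was 15807, 17787 and 14851 normalized counts in DKO with AcLDL and 14347, 16732 and 14223 in DKO with vehicle. In LXR-positive cells it was 19263, 20609 and 19101 with AcLDL and 9154, 8698 and 8200.1 with vehicle. With vehicle every DKO library was above every LXR-positive library, and with AcLDL 3 of 3 DKO libraries were below the LXR-positive ones. The response was 0.10 ± 0.10 (SE, log2; limma adjusted p = 0.92) in DKO and 1.18 ± 0.10 (adjusted p = 0.00017) in LXR-positive cells. The difference was -1.08 ± 0.14 (adjusted p = 0.021), and the adjusted p was 0.025 to 0.11 when 1 library was left out, above 0.05 without 10 of the 12, that is, without any but DKO AcLDL 2 or DKO Veh 3. With the mouse as a block it was 0.13 to 0.24 when any 1 of the 6 mice was left out. DKO minus LXR-positive was -0.29 ± 0.10 with AcLDL (adjusted p = 0.09) and 0.80 ± 0.10 with vehicle (adjusted p = 0.0031).

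Abcg1 (chr17:31057698-31115777) encodes the transporter that passes cholesterol to high-density lipoprotein particles. It stood at 4173, 3295 and 3519 normalized counts in DKO with AcLDL and 3007, 3341 and 2489 in DKO with vehicle. It stood at 6295, 6936 and 5819 in LXR-positive cells with AcLDL and 1959, 2005 and 1823 with vehicle. The DKO ranges with and without AcLDL overlapped, while the LXR-positive libraries with AcLDL were the 3 highest of the 12 and those with vehicle the 3 lowest. The response was 0.32 ± 0.12 in DKO (adjusted p = 0.72) and 1.72 ± 0.12 in LXR-positive cells (limma adjusted p = 6e-05). The difference was -1.40 ± 0.17 (limma adjusted p = 0.021), and the adjusted p was 0.0095 to 0.11 when 1 library was left out, above 0.05 without 9 of the 12, that is, without any but DKO AcLDL 1, DKO Veh 3 or LXR AcLDL 3. With the mouse as a block it was 0.077 to 0.22 when any 1 of the 6 mice was left out.

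Scd2 (chr19:44293676-44306864) encodes a stearoyl-CoA desaturase, which puts a double bond into saturated fatty acids. Its level was 201, 436 and 147 normalized counts in DKO with AcLDL and 1618, 2646 and 1344 in DKO with vehicle. In LXR-positive cells it was 697, 822 and 535 with AcLDL and 238, 245 and 232 with vehicle. The DKO vehicle libraries were the 3 highest of all, and the DKO and LXR-positive libraries lay in opposite order with and without AcLDL. Scd2 fell in DKO by 2.93 ± 0.34 on the log2 scale (limma adjusted p = 0.0026). In LXR-positive cells its response was 1.496 ± 0.34, with a limma adjusted p of 0.13, or 0.0045 with the mouse as a block. The difference in response was -4.43 ± 0.49 (adjusted p = 0.0092), with an adjusted p of 0.054 without LXR AcLDL 2 and 0.052 without LXR Veh 1. DKO minus LXR-positive was -1.52 ± 0.34 with AcLDL (adjusted p = 0.023) and 2.91 ± 0.34 with vehicle (adjusted p = 0.0027). Scd2 belongs to a family of related paralogs, and how reads were divided among its members was not tested.

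**Figure D2:**
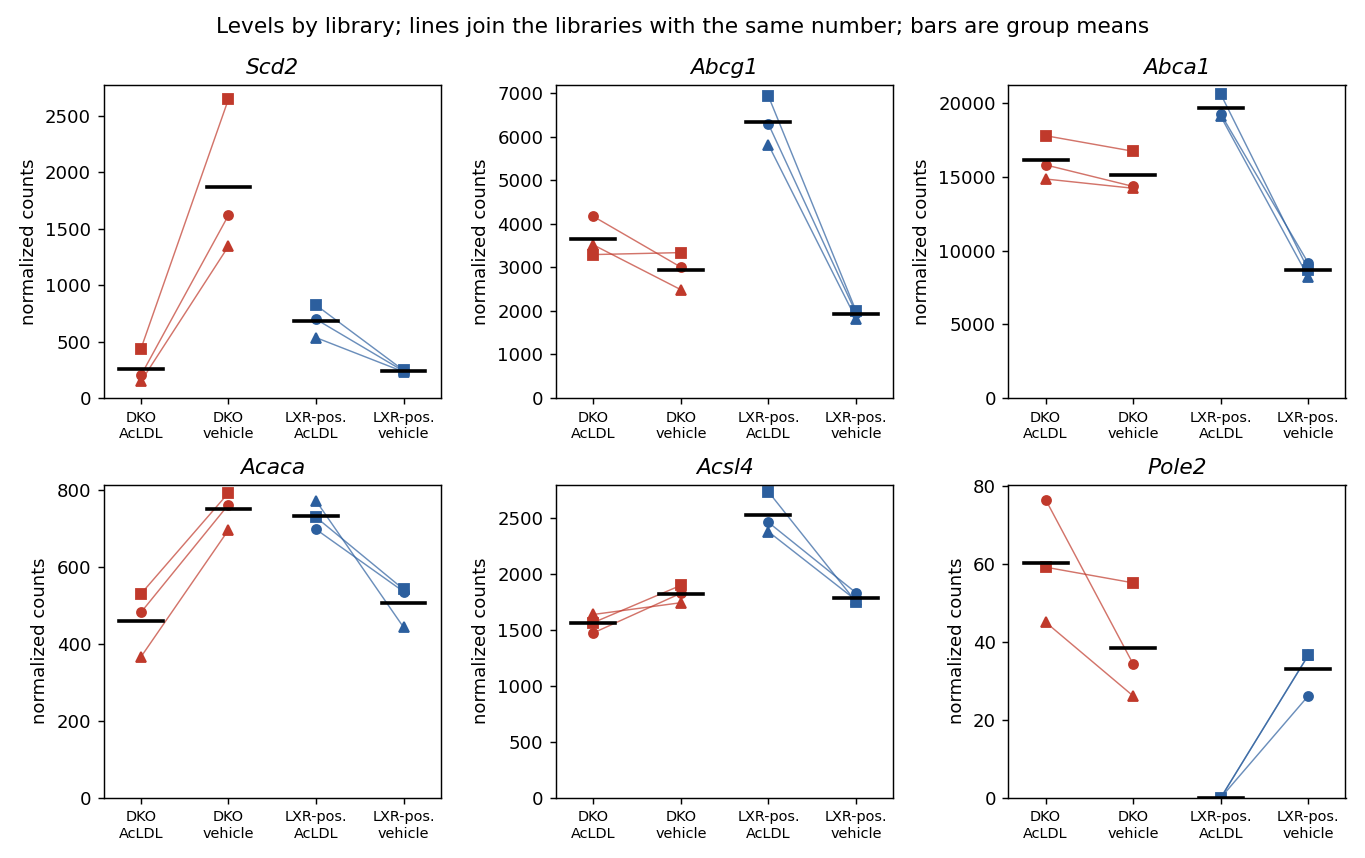
Normalized counts per library in DKO (red) and LXR-positive (blue) macrophages for 6 genes, with AcLDL left of vehicle in each genotype, lines joining libraries with the same number and black bars at the group means. Abca1 and Abcg1 are high in LXR-positive cells with AcLDL, Scd2 is highest in DKO cells with vehicle, and Pole2 is at 0 in the 3 LXR-positive libraries with AcLDL.

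The list of LXR target genes held 34 members, of which 28 were tested. The difference was called lower for 3 of them (0.0187% of all genes tested) and higher for 0 (0.00624%), its median was -0.52 against -0.0035 over all genes, and 23 of 28 had a negative value. The responses of the 3 DKO mice all lay below those of the 3 LXR-positive mice for 14 of the 28, against 820 of 16026 genes (5.12%), and above them for 0 (780 genes, 4.87%). In LXR-positive cells 5 members rose with AcLDL (0.0998% of all genes tested), namely Abca1, Abcg1, Mylip, Arl4c and Eepd1, and the list median was 0.46. With the mouse as a block 9 rose, where 0.537% of all genes were called higher. In DKO cells 0 members rose (also 0 with the block, where 0.0312% of all genes were called higher), Scd2 fell, and the median was -0.13. The lists and the named genes were chosen with earlier results of these data known, so these counts describe them and do not test them.

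Mylip encodes a ubiquitin ligase that limits lipoprotein uptake. It stood at 917, 849 and 1070.03 normalized counts in DKO with AcLDL, 758, 716 and 717 in DKO with vehicle, 2797, 2413 and 2696 in LXR-positive with AcLDL and 1357, 1053 and 1295 in LXR-positive with vehicle. Every DKO library was below every LXR-positive vehicle library except DKO AcLDL 3, which was just above LXR Veh 2. The gene rose in LXR-positive cells by 1.10 ± 0.12 (limma adjusted p = 0.0019), its DKO response was 0.37 ± 0.12 (adjusted p = 0.62), and the difference was -0.73 ± 0.17 (adjusted p = 1). It was lower in DKO under both conditions, at -1.48 ± 0.12 with AcLDL (adjusted p = 8.8e-05) and -0.75 ± 0.12 with vehicle (adjusted p = 0.02).

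Arl4c encodes a small GTPase with a part in cholesterol transport to ABCA1. It averaged 2156 normalized counts in DKO with AcLDL and 2237 in DKO with vehicle, against 4095 in LXR-positive with AcLDL and 2567 in LXR-positive with vehicle. The difference was -0.73 ± 0.14 (limma adjusted p = 0.33; DESeq2, 0.00074), with responses of -0.10, -0.15 and 0.09 in the 3 DKO mice and 0.74, 0.53 and 0.77 in the 3 LXR-positive mice. Eepd1 rose in LXR-positive cells by 0.81 (adjusted p = 0.037), with a difference of -0.53 ± 0.19 (adjusted p = 1).

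Other members differed by values that missed the test. Lpcat3, which makes phospholipids with polyunsaturated chains, had a difference of -0.47 ± 0.24 (limma adjusted p = 1). Mertk, a receptor for the uptake of dying cells, had -0.48 ± 0.16 (adjusted p = 1) and was lower in DKO with AcLDL at -0.76 ± 0.11 (adjusted p = 0.0053). Apoe, an apolipoprotein secreted by macrophages, had a difference of only -0.14 ± 0.21 (95% interval -0.59 to 0.32), with mean levels of 52065, 60901, 44293 and 46932 normalized counts in DKO with AcLDL, DKO with vehicle, LXR-positive with AcLDL and LXR-positive with vehicle. The highest value in the list was that of Ttc39b, 0.36 ± 0.18 (adjusted p = 1). The 5 members with a positive value were Myo1c, Vegfa, Nr1h2, Nr1h3 and Ttc39b.

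Genes of fatty acid synthesis and desaturation formed a second list, 21 of 23 members tested. It shares Scd1, Scd2, Srebf1 and Acsl3 with the LXR target list, so the lists are not independent. The difference was called lower for 1 (Scd2, a member of both lists), against 0.0187% of all genes tested, the median was -0.47 and 17 members were negative. For 6 members, among them the shared Scd1, Scd2 and Srebf1, the 3 DKO mice all lay below the 3 LXR-positive mice (5.12% of all genes). In DKO cells 18 of 21 responses were negative, with a median of -0.33, and in LXR-positive cells 11 of 21, with a median of -0.04.

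Acaca, the acetyl-CoA carboxylase that commits acetyl-CoA to fatty acid synthesis, came nearest to the threshold among genes with annotated function. Its level was 482, 531 and 367 normalized counts in DKO with AcLDL, 763, 793 and 697 in DKO with vehicle, 699, 730.1 and 773 in LXR-positive with AcLDL and 537, 542 and 444 in LXR-positive with vehicle. Within each genotype the AcLDL and vehicle libraries did not overlap, and they lay in opposite order. The difference was -1.26 ± 0.19 (limma adjusted p = 0.1; DESeq2 on the recovered reads, 4.6e-06), and neither response passed on its own (-0.72 ± 0.14 in DKO and 0.54 ± 0.14 in LXR-positive cells).

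Srebf1, which encodes a transcription factor that drives lipogenic genes and is itself an LXR target, showed the same order. It stood at 348, 369 and 285 normalized counts in DKO with AcLDL, 386, 591 and 491 in DKO with vehicle, 370.01, 353 and 402 in LXR-positive with AcLDL and 293, 252 and 228 in LXR-positive with vehicle. The difference was -1.08 ± 0.23 (limma adjusted p = 0.7; DESeq2, 0.023), and with vehicle it was higher in DKO by 0.91 ± 0.16 (limma adjusted p = 0.044). Srebf1 shares 109 exon bases with Rai1 on the opposite strand, and no label states how strand was handled in the counting.

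Scd1, the paralog of Scd2, was low and variable, at 43.6, 84.2 and 7.09 normalized counts in DKO with AcLDL, 111, 164 and 32.5 in DKO with vehicle, 52.6, 62.3 and 36.5 in LXR-positive with AcLDL and 24.98, 10.9 and 12.2 in LXR-positive with vehicle. Its responses were -1.32, -0.96 and -2.05 in the 3 DKO mice and 1.05, 2.41 and 1.505 in the 3 LXR-positive mice, so the signs were opposite in 6 of 6 mice, as for Scd2. Its difference of -3.10 ± 1.09 missed the test (limma adjusted p = 1). Fasn, the fatty acid synthase, had a difference of -0.79 ± 0.34 (adjusted p = 1), although its window holds the same DR4 letters as that of Abca1. The desaturase Fads2 had -0.64 ± 0.63 (adjusted p = 1). Acsl4, which attaches coenzyme A to arachidonic acid and was in neither list, rose in LXR-positive cells (0.50 ± 0.08, adjusted p = 0.037) and had a difference of -0.73 ± 0.12 (adjusted p = 0.11; DESeq2, 1.2e-06).

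**Figure D3:**
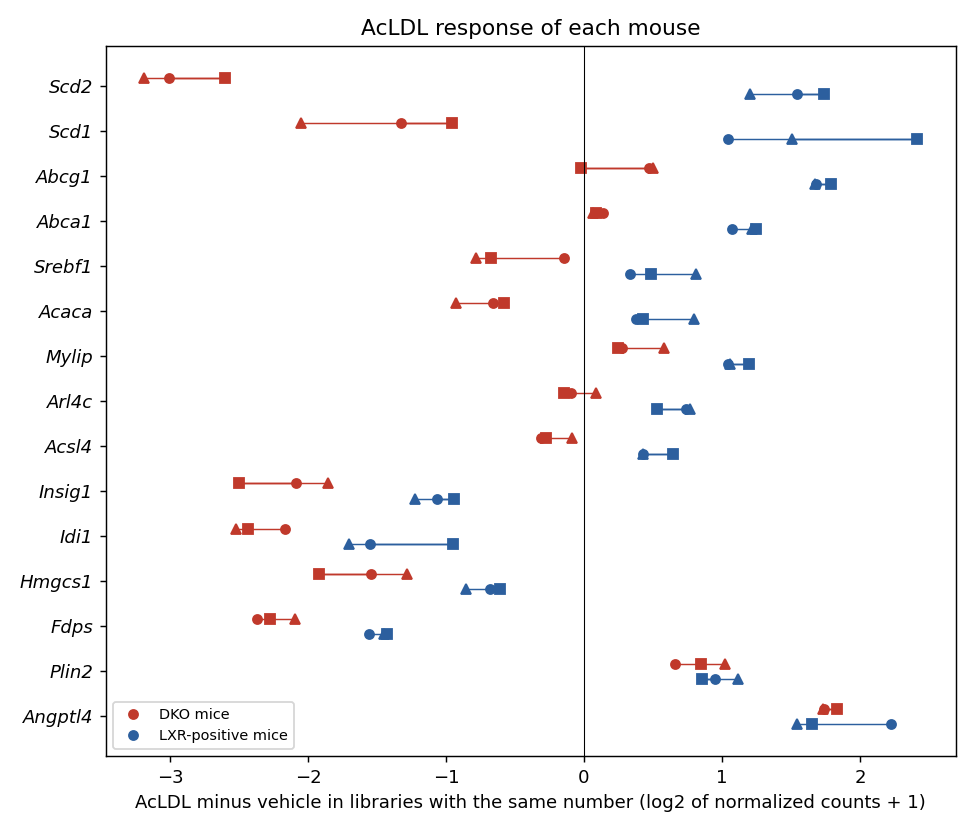
AcLDL minus vehicle within each mouse (log2 of normalized counts + 1) for 15 genes, DKO mice in red above LXR-positive mice in blue, with marker shapes for the mouse number. The genotypes separate for the LXR targets and the cholesterol genes drawn, and overlap for Plin2 and Angptl4.

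Genes of cholesterol synthesis and uptake had mostly negative responses to AcLDL, 21 of 22 in DKO and 20 of 22 in LXR-positive cells. Of 22 members tested (23 analysed here), 11 fell in DKO (0.112% of all genes tested were called lower) with a median of -1.36, and 7 fell in LXR-positive cells (0.125%) with a median of -0.64. With the mouse as a block 12 fell in DKO, against 0.206% of all genes, and 9 in LXR-positive cells, against 1%. The difference was called for 0 of 22, and at an unadjusted p under 0.05 it was lower for 9 (1.67% of all genes tested). DESeq2 called it lower for 1, Hmgcs1 (adjusted p = 0.018), against 0.0624% of all genes. The difference had a median of -0.71 and 21 of 22 values were negative, Insig2 being the exception (0.06). For 13 members the 3 DKO mice all lay below the 3 LXR-positive mice (5.12% of all genes).

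Fdps makes farnesyl diphosphate, the branch point to sterols. Its level was 58.96, 65.5 and 72.2 normalized counts in DKO with AcLDL, 309, 319.9 and 311 in DKO with vehicle, 70.2, 68.3 and 71.6 in LXR-positive with AcLDL and 208, 185 and 197 in LXR-positive with vehicle. With vehicle the DKO libraries were above the LXR-positive ones, and with AcLDL the ranges overlapped. Fdps fell in both genotypes, with a response of -2.24 ± 0.12 in DKO (limma adjusted p = 6.1e-06) and -1.48 ± 0.12 in LXR-positive cells (adjusted p = 0.00017). The difference was -0.77 ± 0.17 (adjusted p = 0.87), and with vehicle Fdps was higher in DKO by 0.67 ± 0.12 (adjusted p = 0.044).

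Insig1, which retains the SREBP complex in the endoplasmic reticulum, stood at 269.5, 256 and 317 normalized counts in DKO with AcLDL, 1150.3, 1455 and 1147 in DKO with vehicle, 447, 322 and 348 in LXR-positive with AcLDL and 934, 619 and 813 in LXR-positive with vehicle. The DKO vehicle libraries were the 3 highest and the DKO AcLDL libraries the 3 lowest of the 12. Its difference was -1.07 ± 0.24 (limma adjusted p = 1), with responses of -2.09, -2.50 and -1.85 in the DKO mice and -1.06, -0.94 and -1.22 in the LXR-positive mice.

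Hmgcs1, which makes HMG-CoA, had responses of -1.54, -1.92 and -1.28 in the DKO mice and -0.68, -0.61 and -0.85 in the LXR-positive mice and a difference of -0.87 ± 0.17 (limma adjusted p = 0.55). For Idi1, the isopentenyl diphosphate isomerase, the mean was 135 normalized counts in DKO with AcLDL and 702 in DKO with vehicle, against 131 in LXR-positive with AcLDL and 339.9 in LXR-positive with vehicle. The lowest value in the list was that of Cyp51, the lanosterol demethylase, at -1.44 ± 0.42 (adjusted p = 1); Cyp51 shares 166 exon bases with Akap9 on the opposite strand.

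The gap between the genotypes was compared under each condition. DKO minus LXR-positive had a median of 0.63 over the 22 genes with vehicle, 20 positive, and 2 were called higher (Fdps and Fdft1; 0.218% of all genes tested) and 0 lower (0.0749%). With AcLDL the same quantity had a median of -0.096, 7 positive, and 0 were called higher (3.76%) or lower (4.85%). Fdft1, the squalene synthase gene, shares 774 exon bases with the abundant Ctsb on the opposite strand.

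**Figure D4:**
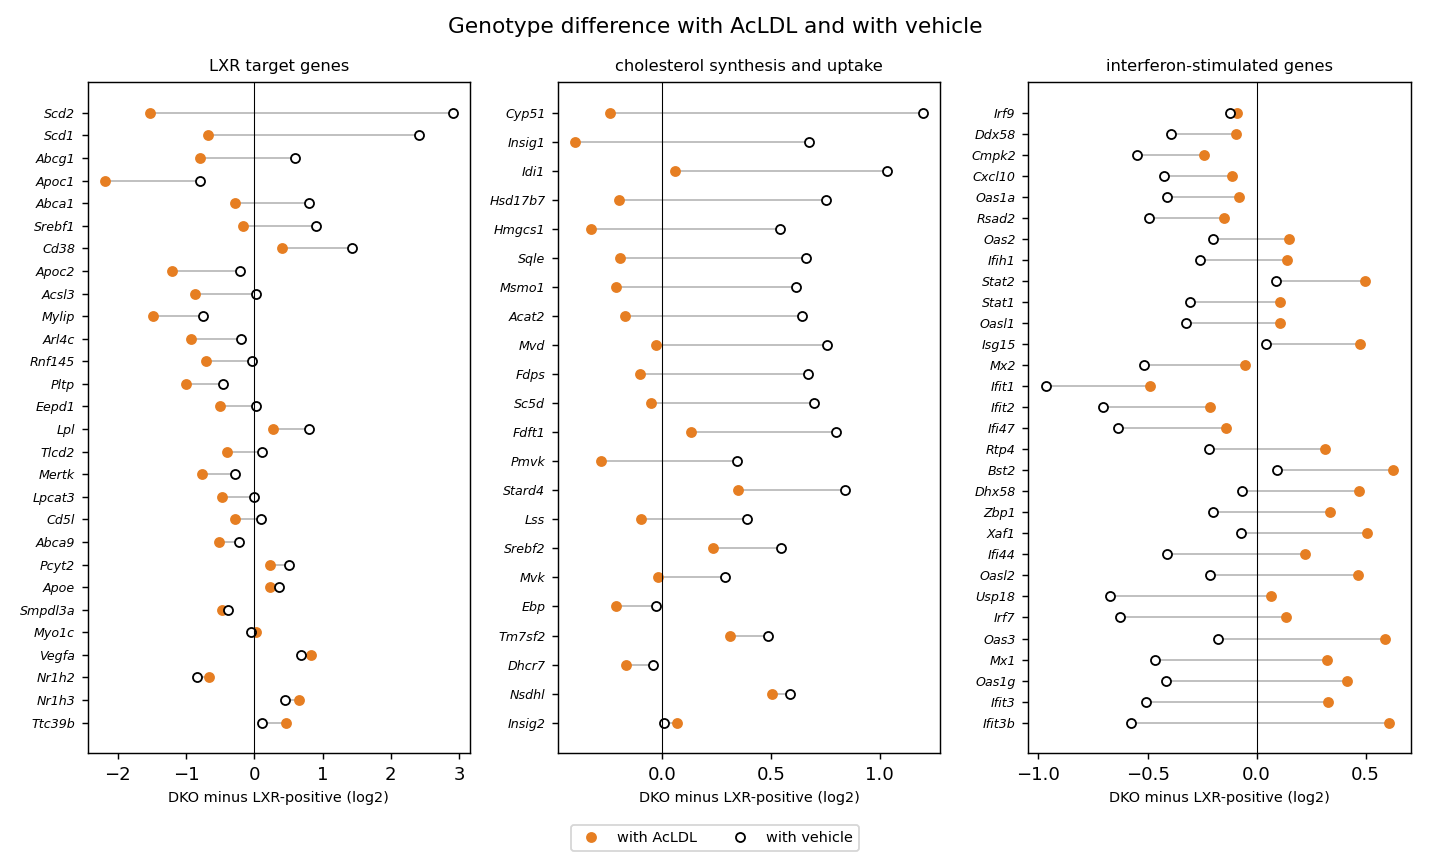
DKO minus LXR-positive (log2) with AcLDL (filled) and with vehicle (open) for the tested members of 3 lists, genes ordered by the difference in response with the lowest at the top. For most cholesterol genes the vehicle point lies to the right of 0 and the AcLDL point near 0, and for all 30 interferon-stimulated genes the AcLDL point lies to the right of the vehicle point.

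Among 18 tested genes for lipoprotein receptors and their regulators, 0 were called for the difference and the median was -0.066. Msr1, the scavenger receptor that takes up AcLDL, had a difference of -0.02 ± 0.15 (95% interval -0.35 to 0.31) and mean levels of 2870.2 normalized counts in DKO with AcLDL, 2180.1 in DKO with vehicle, 3237 in LXR-positive with AcLDL and 2445 in LXR-positive with vehicle. Cd36, another scavenger receptor, had -0.22 ± 0.53 (95% interval -1.37 to 0.93). The receptor Scarb1, which exchanges cholesterol with high-density lipoprotein, had -0.61 ± 0.21 (limma adjusted p = 1).

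Among genes of lipid droplets and PPAR targets, the same 2 rose in each genotype. Over all genes tested, 0.0125% were called higher in DKO and 0.0998% in LXR-positive cells. Of 24 tested, 0 were called for the difference, and the median was 0.03. Plin2, which coats lipid droplets, stood at 7257, 6273 and 7395 normalized counts in DKO with AcLDL, 4599.8, 3488 and 3639 in DKO with vehicle, 7526, 8091 and 10096 in LXR-positive with AcLDL and 3893, 4480.4 and 4657 in LXR-positive with vehicle. All AcLDL libraries were above all vehicle libraries. Plin2 rose by 0.84 ± 0.14 in DKO (limma adjusted p = 0.044) and 0.97 ± 0.14 in LXR-positive cells (adjusted p = 0.02), with a 95% interval of the difference of -0.55 to 0.29. Angptl4, an inhibitor of lipoprotein lipase, rose by 1.77 ± 0.22 in DKO (adjusted p = 0.0034) and 1.81 ± 0.22 in LXR-positive cells (adjusted p = 0.0045), with an interval of -0.70 to 0.62.

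Among the 11 genes called for the AcLDL response in both genotypes were Plin2 and Angptl4, which rose in both, and Fdps, Idi1, Insig1, Stard4, Hmgcs1, Fdft1 and Srebf2, which fell in both. Called in DKO alone were 9, among them Cyp51, Sqle, Msmo1 and Sc5d of sterol synthesis, and in LXR-positive cells alone 25. In LXR-positive cells the responses of Cyp51, Sqle, Msmo1 and Sc5d were also negative, at -1.41, -0.83, -0.72 and -0.69 (limma adjusted p = 0.097 to 0.13). With the mouse as a block, limma also called Sqle and Msmo1 there (adjusted p = 0.038 and 0.046). Of the genes called for either response, limma called the difference between the genotypes itself for 0 of the 11, 1 of the 9 (Scd2) and 3 of the 25 (Abcg1, Abca1 and Pole2), while DESeq2 also called Hmgcs1, Arl4c, Acsl4 and the pseudogenes Stxbp3-ps and Gm15464 (adjusted p = 0.018, 0.00074, 1.2e-06, 0.00074 and 0.0041). For Sqle, the squalene epoxidase, the response was -1.68 ± 0.18 in DKO and -0.83 ± 0.18 in LXR-positive cells, and the difference of -0.86 ± 0.26 missed the test (limma adjusted p = 1).

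Interferon-stimulated genes, which cells switch on after type I interferon, had differences of the opposite sign by their estimates. Of 30 tested, 0 were called for the difference by limma, 4 were higher at an unadjusted p under 0.05 (1.72% of all genes tested), and DESeq2 called 0. The difference was positive for 30 of 30, with a median of 0.49 against -0.0035 over all genes. The AcLDL response was negative for 30 of 30 in each genotype, with a median of -0.48 in DKO and -1.01 in LXR-positive cells. In LXR-positive cells 1 gene, Oas1g, fell past the test, against 0.125% of all genes tested. With the mouse as a block 1 fell in DKO, against 0.206% of all genes, and 13 in LXR-positive cells, against 1%. The list median was 0.30 to 0.72 when 1 library or mouse was left out. Genes of this list are known to move together, so the 30 values are not independent.

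Oas1g, an oligoadenylate synthetase gene, stood at 277, 195 and 196 normalized counts in DKO with AcLDL, 244, 218 and 252 in DKO with vehicle, 164, 189.96 and 143 in LXR-positive with AcLDL and 344, 282 and 329.9 in LXR-positive with vehicle. The LXR-positive vehicle libraries were the 3 highest of the 12 and the LXR-positive AcLDL libraries the 3 lowest. Its difference was 0.83 ± 0.23 (limma adjusted p = 1). Ifit3b had the highest value of the list, 1.18 ± 0.54, with responses of -0.13, -0.95 and -0.91 in the DKO mice and -2.20, -1.09 and -2.25 in the LXR-positive mice. Irf9, a subunit of the transcription factor that drives these genes, had the lowest, 0.03 ± 0.17 (95% interval -0.35 to 0.41); Irf9 shares 123 exon bases with Rnf31 on the same strand.

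Of 19 inflammatory mediators tested, 0 were called for the difference, 17 were positive and the median was 0.28. This median depended on single libraries, at 0.048 without DKO AcLDL 2 (8 of 19 negative), 0.10 without DKO Veh 3 (9 negative), 0.45 without LXR AcLDL 1, 0.44 without DKO Veh 2 and 0.497 without DKO AcLDL 3, and it was 0.13 with thinned reads. With a whole mouse left out under the block it ran from 0.16 (without DKO mouse 2) to 0.49 (without LXR-positive mouse 1). Cxcl2, a chemokine that attracts neutrophils, stood at 56.7, 91.2 and 61.2 normalized counts in DKO with AcLDL, 74.01, 84.3 and 64.5 in DKO with vehicle, 38.3, 13.4 and 32.1 in LXR-positive with AcLDL and 53.5, 58.4 and 59.9 in LXR-positive with vehicle. Its difference was 1.02 ± 0.47 (limma adjusted p = 1), and with AcLDL it was higher in DKO by 1.38 ± 0.33 (adjusted p = 0.027). At the other end, Il1b, the interleukin-1β gene, had -0.42 ± 0.60 (adjusted p = 1). Neutrophil and precursor markers were likewise higher in DKO with AcLDL, 7 of 12 tested being called (3.76% of all genes), and with vehicle 1 of 12 (0.218%). Their difference in response had a median of 0.38, 10 of 12 were positive, the 3 DKO mice all lay above the 3 LXR-positive mice for 4 (4.87% of all genes), and 0 were called; their part in the values of the inflammatory list was not tested.

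**Figure D5:**
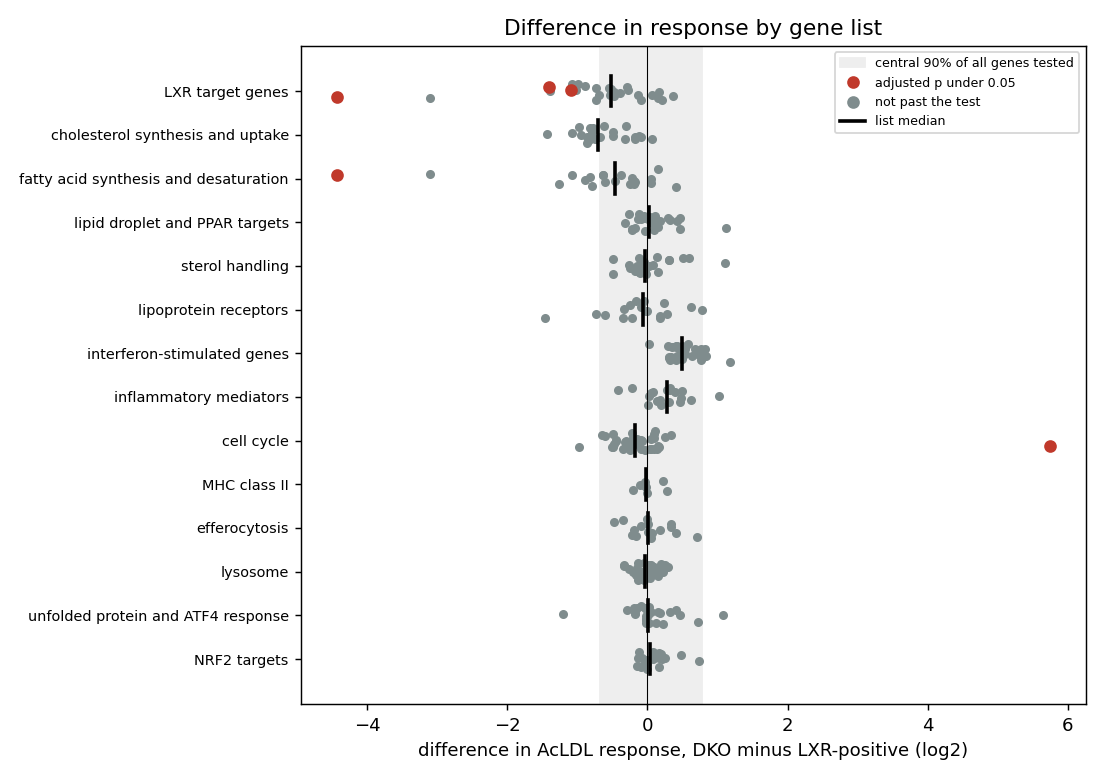
Difference in AcLDL response (DKO minus LXR-positive, log2) of each tested gene in 14 lists, with called genes in red, the list median as a black bar and the central 90% of all genes tested shaded (-0.67 to 0.78). LXR target, cholesterol and fatty acid lists have medians below 0, interferon-stimulated and inflammatory genes above 0, and the others lie between -0.18 (cell cycle) and 0.04 (NRF2 targets).

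Pole2 (chr12:69201779-69228190), a subunit of DNA polymerase epsilon, had the only higher call. Its level was 76.6, 59.2 and 45.1 normalized counts in DKO with AcLDL and 34.3, 55.2 and 26.1 in DKO with vehicle. In LXR-positive cells it was 0, 0 and 0 with AcLDL and 26.2, 36.6 and 36.7 with vehicle. The recovered reads of the gene were 0 in the 3 LXR-positive AcLDL libraries, and the other 9 libraries held between 22 and 100. Against the floor of 3 reads per library, its assigned level in LXR-positive cells was at least 7.30-fold lower with AcLDL than with vehicle. Whether reads of Pole2 were assigned to another gene in the 3 libraries at 0 was not tested. The fitted difference of 5.74 ± 0.47 (limma adjusted p = 0.00072) depends on the value added before the logarithm and is no bound. With the mouse as a block it lost its call without each of the 3 DKO mice (adjusted p = 0.12, 0.06 and 0.099), and edgeR with the block gave an adjusted p of 0.11. These libraries were also the shallowest, and after all libraries were thinned to the same number of reads the difference was 5.23 (adjusted p = 0.0022).

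Of 40 cell cycle genes tested, Pole2 was the 1 called, against 0.00624% of all genes tested called higher. The list median was -0.18, and it was -0.62 without LXR Veh 2 and 0.18 without LXR Veh 3. With a whole mouse left out under the block it ran from -0.30 (without LXR-positive mouse 2) to 0.0067 (without LXR-positive mouse 1). Pole, the catalytic subunit of the same polymerase, stood at 568, 485 and 179 normalized counts in DKO with AcLDL, 332, 325 and 122 in DKO with vehicle, 188, 298 and 146 in LXR-positive with AcLDL and 47.6, 197 and 29.3 in LXR-positive with vehicle, and its difference was -0.98 ± 0.93 (limma adjusted p = 1). DKO minus LXR-positive was positive for 39 of 40 cell cycle genes with AcLDL and for 40 of 40 with vehicle, with 2 called higher with AcLDL (3.76% of all genes tested) and 0 with vehicle (0.218%).

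The remaining lists gave no call for the difference, with medians of -0.03 for 23 genes of sterol handling, 0.01 for 17 of efferocytosis, -0.04 for 30 of the lysosome, 0.0049 for 26 of the unfolded protein and ATF4 response and 0.04 for 20 targets of NRF2. For 8 MHC class II genes the median was -0.02. It ran from -0.498 without DKO AcLDL 3 (8 of 8 negative) to 0.56 without DKO Veh 3, so leaving out a single DKO library set its sign. With a whole mouse left out under the block, the range was narrower. It ran from -0.085 (without LXR-positive mouse 3) to 0.052 (without DKO mouse 3). Over all genes, 47 differed between DKO and LXR-positive cells with vehicle (0.293%) and 1379 with AcLDL (8.6%). The 2 counts rest on different libraries, and depth was lowest in LXR-positive cells with AcLDL. At an unadjusted p under 0.05 in limma, 984 genes were higher and 1182 lower in DKO with vehicle. With AcLDL 1989 were higher and 2209 lower. The change between the conditions was tested only as the difference in response, called for 4 genes (0.025%).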

How the data were processed

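RNA sequencing libraries were made from 500 ng of RNA with a stranded total RNA kit (SMARTer, Clontech) and read single-end at 50 bp, per the labels' protocols and the series' design text. The submitters' processing notes name kallisto, DESeq2 and GRCm38; versions, annotation and strand setting are not given there. The authors deposited normalized counts, a signal per gene made of whole numbers divided by 1 size factor per library. Reads in this report are these whole numbers, recovered within 0.01 read for 100% of values. Whether they are direct counts or rounded estimates of assigned reads is not stated, so a 0 may also be a rounded value. The authors' deposited statistics were not used, and 0 columns of per-sample values were left unmapped. Libraries held 8280899 to 27189081 reads; 15172 of 47372 genes were at 0 in all 12.

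The difference in response was fitted with limma 3.58.1 (R 4.3.3, trend) on log2(value + 1) with 4 group means over 12 libraries and 1 shared spread, and p-values were adjusted by Benjamini-Hochberg over the 16026 genes tested. Fold changes on this scale understate those of low genes. P-values of this fit measure the spread between the 3 libraries within each group. The AcLDL and vehicle libraries of a mouse enter it as separate samples, and only the fits with the mouse as a block use the pairing. The fit was tested on simulated counts before use. Members and lists were chosen with earlier results of these data known. Genes were named by a rule: those called for the difference, those called in at least 2 of 4 fits (limma, limma with the mouse as block, edgeR 4.0.16 and DESeq2 1.42.0 on recovered reads), the lowest and highest of each list, a fixed set of LXR and SREBP genes, and the 5 smallest p in each direction. Some list members and named genes are not reported here, and the counts and medians of the lists are without them. Further genes in the text are list members or genes called for a response.

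Alternatives were pseudocounts of 0.5 and 8, no filter, a filter at 50, quantile normalization, edgeR, DESeq2, thinning to 8280899 reads, the mouse as block, and leaving out each library or mouse. AcLDL and vehicle libraries with the same number and genotype deviated together from their group means (r = 0.12 to 0.36 over 6 pairs, each highest with its own number). The design text counts 6 mice, so the numbers were read as pairing the samples by mouse. GENCODE M21 (GRCm38) held 46734 of the 47372 gene identifiers, 91.0% with the deposited start and end, and was used for exon overlaps.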

Additional observations from a re-analysis of the deposited data

Results flagged for a closer look

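The AcLDL response of 4 genes differed between DKO and LXR-positive cells by a test of the difference itself. On the log2 scale the difference was 5.74 for Pole2, -4.43 for Scd2, -1.40 for Abcg1 and -1.08 for Abca1 (limma adjusted p = 0.00072, 0.0092, 0.021 and 0.021). In each of these genes the responses of all 3 DKO mice lay on one side of those of all 3 LXR-positive mice. Over all genes tested, they lay below for 5.12% and above for 4.87%. The 4 genes were called on the same values, so this separation adds no support. Pole2 rests on 3 libraries in which its recovered reads were 0, which were also the shallowest group.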

How the results depend on the processing

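The same 4 genes were called for the difference with limma at pseudocounts of 0.5 and 8, a filter at 50, quantile normalization, thinned reads, the replicate block alone or with thinned reads, and with edgeR (TMM); without a filter 5 were called, 3 of them shared, Abca1 being at 0.061. DESeq2 called 13 (3 higher, 10 lower), including all 4. edgeR with the replicate block, chosen after seeing the data, called 1, Scd2, with adjusted p of 0.11 for Pole2, 0.072 for Abcg1 and 0.068 for Abca1. Leaving out 1 library gave 1 to 5 calls, and leaving out 1 mouse under the block 1 to 3; the cause was not tested beyond the smaller number of samples. For the AcLDL response, the count in DKO was 20, and 82 by DESeq2, 38 with the replicate block, 44 with the block and thinned reads, 38 by edgeR with the block, and 15 to 87 with a library or mouse left out. In LXR-positive cells it was 36, and 24 with quantile normalization, 20 by edgeR, 285 by DESeq2, 23 with thinned reads, 247 with the replicate block, 247 with the block and thinned reads, 157 by edgeR with the block, and 10 to 445 with a library or mouse left out; the cause was not tested. In limma the block changed no call for the difference in response. Among 50 named genes, the sign turned in 10 uncalled ones when a library or mouse was left out, with ranges of -0.067 to 0.38 for Nr1h3, -0.27 to 0.014 for Apoe, -0.24 to 0.17 for Angptl4, -0.095 to 0.26 for Insig2, -0.93 to 0.11 for Mgll, -0.089 to 0.15 for Irf9, -0.96 to 0.0058 for Il1b, -0.70 to 0.28 for Ciita, -0.52 to 1.16 for Cd74 and -0.84 to 2.18 for Shmt2; Angptl4 was also 0.033 with quantile normalization. With whole mice left out under the block, Apoe (-0.20 to -0.063), Ciita (-0.37 to -0.035) and Cd74 (0.16 to 0.40) kept their sign. Their turns came from leaving out single libraries, and the others listed turned with whole mice left out. Depth was lowest in LXR-positive cells with AcLDL, which limits low genes there, and with 3 mice per genotype only large or very even differences passed.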

Other observations

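Among genes called for the AcLDL response in LXR-positive cells alone, the formyl peptide receptors Fpr1 and Fpr2, which guide phagocytes to bacterial peptides, had responses of -1.66 and -1.29 in DKO, against -1.86 and -2.002 in LXR-positive cells (limma adjusted p = 0.037 for each in LXR-positive cells). Their differences of 0.20 ± 0.44 and 0.71 ± 0.47 missed the test (adjusted p = 1 for each). Siglece, an inhibitory receptor for sialic acids, had responses of -1.45 in DKO and -2.14 in LXR-positive cells (adjusted p = 0.029), with a difference of 0.70 ± 0.47. The platelet factor gene Pf4 had 0.81 in DKO and 1.29 in LXR-positive cells (adjusted p = 0.024), with a difference of -0.48 ± 0.27.

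Some processed pseudogenes and a patch gene were present or absent by group or library. Stxbp3-ps stood at 0, 0 and 0 normalized counts in DKO with AcLDL, 146, 23.7 and 10.8 in DKO with vehicle, 139, 101 and 186 in LXR-positive with AcLDL and 106, 191 and 104 in LXR-positive with vehicle, and fell in DKO (limma adjusted p = 0.0089); its difference missed the test in limma (adjusted p = 0.33) and passed in DESeq2 (0.00074). Gm10156 was listed at 178, 295 and 104 in DKO with AcLDL, 222, 89.6 and 265 in DKO with vehicle, 0, 0 and 0 in LXR-positive with AcLDL and 0, 228 and 0 in LXR-positive with vehicle, so its DESeq2 call (adjusted p = 2e-07) rests on LXR Veh 2. Reads of such copies may be shared with a near-identical gene, so their values are uncertain.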
